A study of Homo sapiens with 8 samples.

Results

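BEX2, PRPH, FUT1 and KLHDC7B are 4 genes whose RNA was almost lost from 769-P cells in medium with branched-chain amino acids (BCAA). They were chosen by their measured values, as genes with the largest falls with BCAA in 769-P, so their values in that line are given as a description with no test. They are 4 of 27776 genes listed for either cell line and 4 of 22391 tested in 769-P. The samples were total RNA from 769-P and CAKI-1, established lines of human renal cell carcinoma, kept for 16 hours with or without BCAA, with 2 libraries per line and condition and 8 in all. The supplement was valine at 0.17 mM with leucine and isoleucine at 0.38 mM each, and the methods describe the depleted medium as mixed from RPMI powder lacking amino acids, with dialyzed serum. The labels name no other agent, and before treatment 769-P was maintained in RPMI and CAKI-1 in MEM, each with serum. Between 30979773 and 64256834 reads per library lay on listed genes, and in 769-P the deeper libraries were those with BCAA. No label states that the libraries came from separate cultures, so each p-value measures the spread between these libraries, which may be technical. Of the renal epithelial markers examined, 7 of 8 were listed in 769-P and 6 of 8 in CAKI-1, and CA9, a hypoxia-induced carbonic anhydrase of clear cell tumors, was listed in neither. No listed gene had fewer than 2 reads over the 4 libraries of its line.

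BCAA are essential amino acids, and cells short of an amino acid accumulate uncharged transfer RNA, which activates the kinase GCN2. GCN2 phosphorylates the initiation factor eIF2, and this raises translation of ATF4, a transcription factor that pairs with C/EBP proteins at composite DNA elements of genes for amino acid synthesis, uptake and stress. The genes described here have no shared textbook function. BEX2 is a small adaptor protein of the brain-expressed X-linked family. PRPH encodes peripherin, a type III intermediate filament of peripheral neurons. FUT1 is the fucosyltransferase that makes the H antigen, the precursor of the A and B blood groups, and KLHDC7B is a kelch-domain protein whose function is little known.

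In GENCODE 29 (GRCh38), BEX2 (ENSG00000133134) lies at chrX:103309346-103311046 on the minus strand with 3 exon blocks, and PRPH (ENSG00000135406) at chr12:49293252-49298686 on the plus strand with 9. FUT1 (ENSG00000174951) lies at chr19:48748011-48755390 on the minus strand with 4 exon blocks, and KLHDC7B (ENSG00000130487) at chr22:50545891-50551023 on the plus strand with 1. The genes thus lie on different chromosomes. The bases before their starts are shown because FUT1 shares its upstream DNA with FGF21, a hormone gene of the amino acid response. That the 4 genes fell together in 769-P is fixed by their choice. All 4 genes were matched in the RefSeq promoter sequences (GRCh38.p14). Each stretch is printed 5′ to 3′ on the strand of its gene and ends at the base before the RefSeq start. These starts lie inside the GENCODE spans given above, and the whole PRPH stretch does too. For BEX2 it is chrX:103310991-103311240, for PRPH chr12:49294897-49295146 and for KLHDC7B chr22:50545649-50545898, of 250 bases each. For FUT1 it is chr19:48755359-48755523, the 165 bases between the FUT1 start and the FGF21 start, which face away from each other. Capitals mark matches to motifs searched on both strands.
BEX2: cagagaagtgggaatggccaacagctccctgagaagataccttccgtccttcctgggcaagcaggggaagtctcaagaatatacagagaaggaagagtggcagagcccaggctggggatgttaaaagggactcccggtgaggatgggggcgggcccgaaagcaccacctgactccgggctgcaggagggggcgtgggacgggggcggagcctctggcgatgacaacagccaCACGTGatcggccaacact
PRPH: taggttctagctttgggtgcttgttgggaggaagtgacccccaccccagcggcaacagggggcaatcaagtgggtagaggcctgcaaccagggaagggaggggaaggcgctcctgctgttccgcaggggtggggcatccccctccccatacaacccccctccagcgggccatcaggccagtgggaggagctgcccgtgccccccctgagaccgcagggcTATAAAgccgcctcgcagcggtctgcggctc
FUT1: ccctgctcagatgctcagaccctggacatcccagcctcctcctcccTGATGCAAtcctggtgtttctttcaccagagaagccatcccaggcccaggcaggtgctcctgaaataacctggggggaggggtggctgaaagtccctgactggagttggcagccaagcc
KLHDC7B: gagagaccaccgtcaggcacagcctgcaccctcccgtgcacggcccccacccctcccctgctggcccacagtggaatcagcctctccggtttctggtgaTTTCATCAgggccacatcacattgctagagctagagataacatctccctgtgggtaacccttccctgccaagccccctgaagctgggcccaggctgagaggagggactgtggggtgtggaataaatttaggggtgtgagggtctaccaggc

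The FUT1 stretch held TGATGCAA, a match to TGATGNAA, the composite C/EBP-ATF element, from base -119 to -112 relative to the FUT1 start and from base -54 to -47 relative to the FGF21 start, where it reads on the other strand. KLHDC7B held TTTCATCA, a match to the same motif on the other strand, from base -151 to -144. Of 35116 RefSeq windows of 250 bases, 3.14% held TGATGNAA. BEX2 held the E-box CACGTG from base -19 to -14, as did 6.34% of windows, and PRPH held the TATA box TATAAA from base -31 to -26, as did 10.7%. The cyclic AMP response element TGACGTCA, present in 1.65% of windows, was not among the letters of any of these stretches, and the second RefSeq start of FUT1, with bases chr19:48752642-48752891 before it, held none of the 4 motifs. The motifs do not overlap one another. They were chosen after the sequences had been seen, and a match is a description of the letters and not evidence of binding.

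In 769-P, all 4 genes were near the limit of detection with BCAA and well above it without. The values are normalised reads, that is reads per gene divided by the size factor of the library, and the reads themselves are given here. BEX2 had 393 and 350 reads without BCAA and 10 and 8 with it, or 458 ± 42.5 against 7.21 ± 0.524 normalised reads (SD, n = 2). The libraries with BCAA thus kept 1.58% of the BEX2 level, with a 95% interval from 0.931% to 2.52% (exact binomial on summed reads, counting error only). It was the most abundant of the 4 genes without BCAA.

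PRPH had 124 and 119 reads without BCAA and 9 and 1 with it, or 150 ± 6.01 against 3.84 ± 4.22 normalised reads, which left 2.68% (interval 1.27% to 5.02%). The libraries with BCAA differed among themselves here, and nearly all of the remaining reads were in replicate 1. FUT1 had 102 and 88 reads without BCAA and 4 and 2 with it, or 117 ± 13.5 against 2.37 ± 0.935 normalised reads, which left 2.06% (interval 0.746% to 4.57%). KLHDC7B had 42 and 39 reads without BCAA and 0 in both libraries with it, where the normalised value was 49.9 ± 3.16 without BCAA. A count of 0 allows up to 3 reads per library, so KLHDC7B was at least 19.5-fold lower with BCAA, with at most 5.14% left. The intervals of the other 3 genes overlap one another, so the depth gives no order among their falls. In bulk RNA, fewer cells with a transcript and less transcript per cell cannot be told apart.

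**Figure D1:**
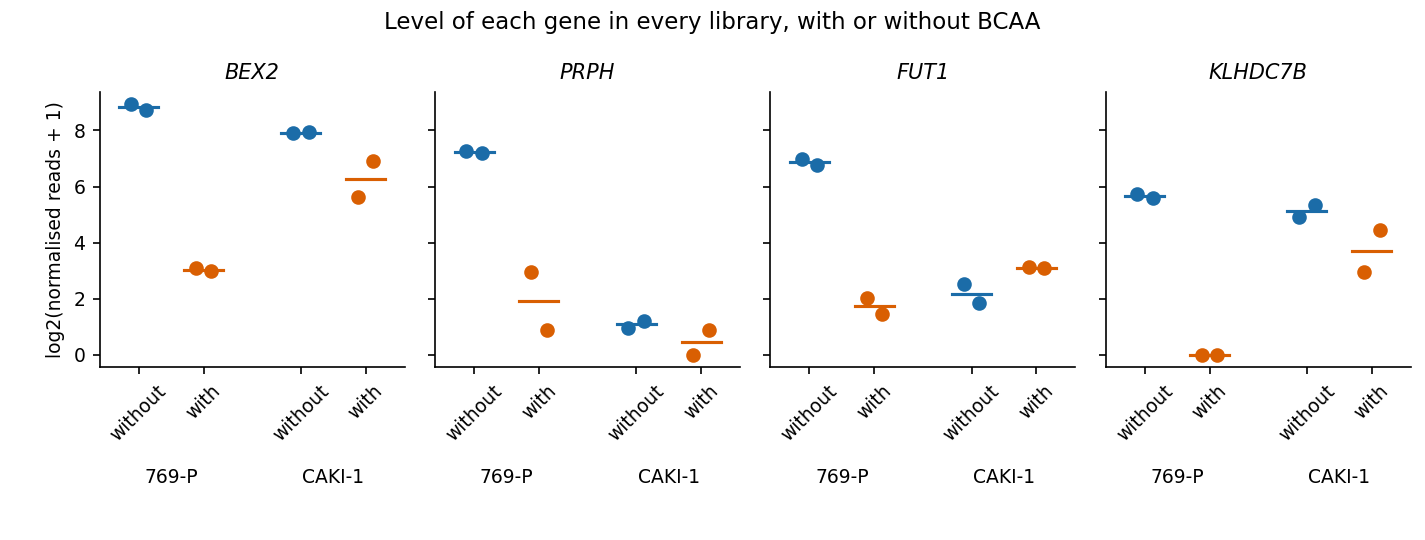
Level of BEX2, PRPH, FUT1 and KLHDC7B in each of the 8 libraries as log2(normalised reads + 1), with points for libraries and bars for the means of 2 libraries (blue, without BCAA; orange, with BCAA). The tables of the cell lines were normalised separately. In 769-P the groups lie far apart for every gene, while in CAKI-1 BEX2 and KLHDC7B have spread-out libraries with BCAA and PRPH sits near 0.

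Divided by exonic length, the 769-P levels without BCAA were 389.5 normalised reads per kb for BEX2, 34.4 for PRPH, 27.0 for FUT1 and 9.73 for KLHDC7B. The libraries of PRPH and FUT1, the closest in this order, did not overlap. With BCAA the levels per kb were 6.13, 0.882, 0.546 and 0 in the same order, and there the libraries of PRPH and FUT1 overlapped. None of the genes was abundant. Without BCAA, BEX2 took 9.38 RPM, the reads scaled to a common total on listed genes, and 36.2% of listed genes had a higher value, while for KLHDC7B this share was 50.9%. With BCAA, 65.2% of listed genes were above BEX2, 71.1% above PRPH and 76.3% above FUT1.

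On the log2(value + 1) scale used for all genes, the difference with BCAA minus without was -5.80 for BEX2, -5.67 for KLHDC7B, -5.31 for PRPH and -5.15 for FUT1 in 769-P, against a median of -0.02 over all 22391 genes tested. The added 1 sets the size for KLHDC7B, whose level with BCAA was 0, so its value is no measure of its fold. For PRPH the value was -6.34 without replicate 1 with BCAA and -4.27 without replicate 2. In that order of falls, BEX2 was at rank 2, KLHDC7B at 3, PRPH at 4 and FUT1 at 5. AC034213.1, a long intergenic non-coding RNA with 121 and 105 reads without BCAA and 1 and 0 with it, was at rank 1 with -6.72 and is not among the 4. LCN2, the iron-siderophore carrier lipocalin 2, followed at rank 6 with 33 and 40 reads without BCAA and 0 and 2 with it, a difference of -4.80. HOXB9, a homeobox gene at rank 7 with -4.46, had 12 and 24 reads without BCAA and 0 in both libraries with it. All 4 genes had both libraries with BCAA below both without, as did 33.5% of all genes tested in 769-P, and the choice of the genes fixes this count.

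**Figure D2:**
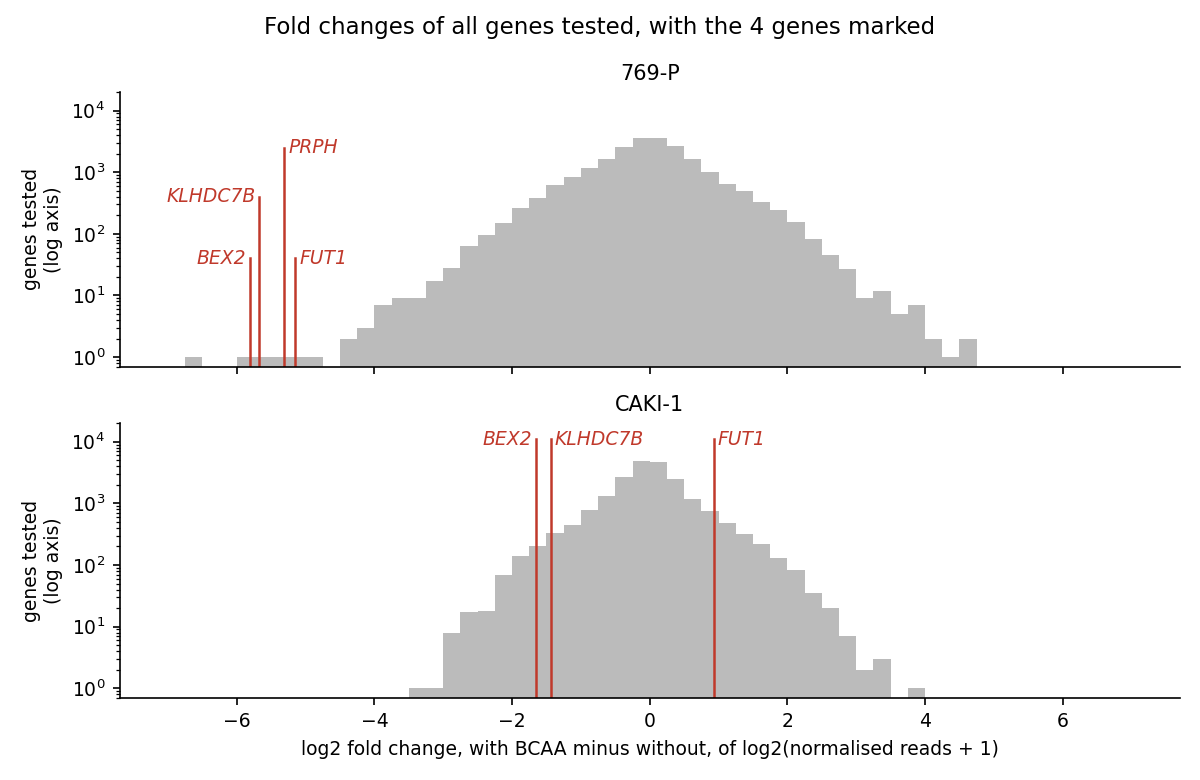
Histograms of the log2 fold change (with BCAA minus without) of all genes tested in 769-P (top) and CAKI-1 (bottom), with gene counts on a log axis and red lines at the 4 genes, whose heights carry no value. In 769-P the genes were chosen for their place at -5.15 to -5.80, beyond nearly all others, and in CAKI-1 BEX2 is at -1.65, KLHDC7B at -1.44 and FUT1 at 0.93, each nearer to 0 than in 769-P. PRPH was too low to be tested in CAKI-1.

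CAKI-1 was not used to choose the genes, so the BCAA contrast was tested there with limma across 21347 genes. Only BEX2 among the 3 genes that could be tested passed the threshold. BEX2 had 253 and 190 reads without BCAA and 50 and 144 with it, or 242 ± 2.86 against 84.2 ± 50.3 normalised reads. The libraries with BCAA were both lower, and they differed more from each other than those without. The difference was -1.65 (SE 0.32, 95% interval -2.37 to -0.94, limma adjusted p = 0.0041), and 35.9% of the level was left. Without replicate 1 with BCAA the difference was -1.01 (limma adjusted p = 0.12) and without replicate 2 it was -2.29 (limma adjusted p = 0.071), in fits where 0 genes of CAKI-1 were called. In CAKI-1, 9.05% of tested genes were called lower with BCAA. Exact permutation of 2 against 2 libraries cannot give a p below 0.333.

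KLHDC7B had 31 and 31 reads without BCAA and 7 and 25 with it in CAKI-1, or 29.5 and 39.9 against 6.81 and 20.8 normalised reads. The groups did not overlap, and 42.3% was left (interval 26.7% to 65.9%, counting error only). Across libraries the difference of -1.44 (SE 0.53, interval -2.59 to -0.28) missed the threshold, with a limma adjusted p of 0.082. Without replicate 1 with BCAA it was -0.69 and without replicate 2 it was -2.18. FUT1 had 5 and 2 reads without BCAA and 8 and 9 with it, values that lie in the other order from 769-P, and the difference of 0.93 (SE 0.66, interval -0.52 to 2.38) did not pass (limma adjusted p = 0.39). PRPH had 1 and 1 reads without BCAA and 0 and 1 with it, so both groups were at the floor and no fold is given. BEX2 and KLHDC7B are therefore 2 of 3 tested genes with both libraries with BCAA below both without, a pattern shared by 28.8% of the genes tested in CAKI-1.

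The levels without BCAA differed between lines for some of the genes more than for others, though the tables were normalised separately and only RPM can be set side by side. BEX2 took 9.38 RPM in 769-P and 6.10 in CAKI-1, and KLHDC7B 1.02 and 0.854. FUT1 took 2.40 and 0.0964, and PRPH 3.07 and 0.0276. Thus BEX2 and KLHDC7B had levels of the same order in both lines, while FUT1 and PRPH had few reads in CAKI-1 in either condition. No difference between the lines in the BCAA effect was tested for these genes, since the effect in 769-P chose them.

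In CAKI-1 with BCAA, replicate 1 was below replicate 2 for both BEX2 (48.6 against 120 normalised reads) and KLHDC7B (6.81 against 20.8). Over all genes tested, 49.3% were lower in replicate 1 than in replicate 2 with BCAA, with a median difference of 0.0 on the log2 scale. The share for the libraries without BCAA was 47.4%. Of 19 listed genes of the amino acid response, 15 were lower in replicate 1 with BCAA, with a median difference of -0.20 on the log2 scale. Without BCAA 12 of the 19 were lower in replicate 1. Whether this difference between libraries bears on BEX2 and KLHDC7B was not tested.

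Over the 8 libraries, BEX2 and KLHDC7B were each other's closest match among 19405 other genes, by the distance between profiles of log2(value + 1) centred within each line (0.42). The next closest to both was AC034213.1, at 1.68 from BEX2 and 1.69 from KLHDC7B, and then RPLP0P2, a ribosomal protein pseudogene, at 1.95 and 1.79. AC034213.1 had 6 and 10 reads without BCAA and 4 and 5 with it in CAKI-1. FUT1 was closest to HOXB9 (1.62), which in CAKI-1 had between 2997 and 4316 reads per library, and then to RPS6KA2 (1.74) and PRDM16 (1.75). PRPH could be matched only over the 4 libraries of 769-P, where FUT1 was closest (1.08), followed by BEX2 (1.47) and KLHDC7B (1.51). The choice of the genes for large falls sets much of these distances. The match of BEX2 and KLHDC7B also rests on the added 1, since KLHDC7B had 0 reads with BCAA, and with a pseudocount of 0.1 their differences in 769-P were -5.97 and -8.97.

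The relatives of BEX2 in the BEX and TCEAL families, small proteins encoded mostly in clusters on the X chromosome, did not fall with it as a group in 769-P. Of 13, 7 were tested in 769-P, of which 5 rose and 2 fell, with a median of 0.50, where 20.3% of all genes tested were called higher and 18.2% lower. BEX4 had 107 and 105 reads without BCAA and 39 and 30 with it, a difference of -2.21 (SE 0.26, limma adjusted p = 3.1e-05), the lowest of the family after BEX2. BEX3, TCEAL1, TCEAL3, TCEAL8 and TCEAL9 rose by 0.39 to 0.69, and TCEAL4 fell by 0.40. In CAKI-1, 4 of 8 fell and 0 rose, with a median of -0.35, where 9.05% of all genes tested were called lower and 10.8% higher.

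BEX4 fell in CAKI-1 too, from 49 and 40 reads to 22 and 21, a difference of -1.30 (limma adjusted p = 0.024). Its effect did not differ detectably between lines (-0.91, SE 0.44, adjusted p = 0.17, limma interaction). BEX1, the near-identical copy of BEX2, was not listed in 769-P and had 0 and 1 reads with BCAA and 2 and 2 without in CAKI-1. How reads matching both copies were counted is not given in the sources used here, so the BEX2 level carries that uncertainty.

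Among type III and IV intermediate filament genes, the family of PRPH, 2 of 8 tested in 769-P rose and 1 fell. Of all genes tested, 20.3% were called higher and 18.2% lower, and the family median of -0.02 equalled that of all genes. NES, which encodes nestin of neural progenitors, had 9 and 13 reads without BCAA and 87 and 94 with it, a difference of 2.36 (SE 0.37, limma adjusted p = 2.7e-04), in the opposite direction to PRPH. NEFL, the light neurofilament chain, had 15965 and 16189 reads without BCAA and 14678 and 11611 with it, a difference of -0.91 (limma adjusted p = 5.4e-08). VIM, the vimentin gene, had -0.04 in 769-P and did not pass. In CAKI-1 it fell by 0.65 (limma adjusted p = 2.1e-05) and was the only one of 8 called. Of all genes tested in CAKI-1, 9.05% were called lower and 10.8% higher.

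Because peripherin and BEX2 are known from neural tissue, markers of neurons and neuroendocrine cells were examined. In 769-P, 9 of 13 were listed and 2, UCHL1 and TUBB3, reached 100 reads in a library. CHGA, STMN2 and ELAVL4 were listed in neither line. The summed level of the markers in 769-P was 1401 and 1439 normalised reads with BCAA and 1620 and 1581 without, almost all from UCHL1, which fell by 0.20 (limma adjusted p = 0.034), and the other 7 tested did not pass. Leukocyte and endothelial markers summed to at most 31.9 normalised reads in any 769-P library, and the 4 tested there did not pass. Whether other cells had a part in these levels was not tested.

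Of 9 fucosyltransferases tested in 769-P beside FUT1, 2 rose and 2 fell, near the shares of all genes (20.3% higher and 18.2% lower), with a median of 0.09. FUT9, which makes the Lewis x structure, rose from 179 and 230 reads to 872 and 859, a difference of 1.47 (limma adjusted p = 2.0e-06), and FUT8, the core fucosyltransferase, rose by 0.75. FUT4 fell by 0.72 and FUT11 by 0.85. FUT2, the secretor gene and close homolog of FUT1 that lies 42061 bases from it, had 2 and 6 reads without BCAA and 10 and 17 with it, which did not pass (1.10, limma adjusted p = 0.25). In CAKI-1, 4 of 8 rose and 0 fell, where 10.8% of all genes tested were called higher and 9.05% lower. Among the 4 was FUT9, from 12 and 3 reads to 34 and 51 (2.31, limma adjusted p = 0.011). After quantile normalization 1 fucosyltransferase was called higher, and by DESeq2 2 were.

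Of 7 enzymes and transporters that supply GDP-fucose or remove fucose, 3 rose and 1 fell in 769-P. Of all genes tested there, 20.3% were called higher and 18.2% lower. GMDS, the first enzyme of GDP-fucose synthesis, rose by 0.79, and FPGT and FUCA2 by 0.42 and 0.13, while the salvage kinase FCSK fell by 0.60. FUCA2 was not called after quantile normalization (0.09, limma adjusted p = 0.11). In CAKI-1, 1 rose and 2 fell, where 10.8% of all genes tested were called higher and 9.05% lower. The relatives of KLHDC7B changed in both directions. Of 8 KLHDC genes tested in 769-P, 4 fell and 1 rose, with a median of -0.20 (all genes tested: 18.2% lower, 20.3% higher). The lowest of the 8 was KLHDC1, with 28 and 25 reads without BCAA and 17 and 16 with it (-1.23, limma adjusted p = 0.037). KLHDC7A, the closest relative by name, fell by 0.74 with 1106 and 1101 reads without BCAA and 1108 and 916 with it. In CAKI-1, 1 of 8 rose and 1 fell, near the shares of all genes there.

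The amino acid response genes fell with the 4 genes in 769-P. Of 20 tested, 18 fell and 1, ATF5, rose, with a median of -2.32. Of all genes tested in 769-P, 18.2% were called lower and 20.3% higher. CHAC1, a glutathione-degrading enzyme, had 1693 and 1735 reads without BCAA and 209 and 183 with it, a difference of -3.74 (SE 0.09, limma adjusted p = 6.7e-11), the lowest of the list. ASNS, asparagine synthetase, fell from 13234 and 12964 to 4383 and 4014 reads (-2.26, limma adjusted p = 2.3e-11). The differences of the 4 genes lie below that of every gene of this list, which their choice fixes.

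In CAKI-1, 9 of 19 tested amino acid response genes fell and 1, VLDLR, rose, with a median of -0.33. Of all genes tested in that line, 9.05% were called lower and 10.8% higher. DDIT3, the stress factor CHOP, fell most there (-1.12, limma adjusted p = 2.6e-05), from 1214 and 907 reads to 499 and 702. For CHAC1 and ASNS the fall was larger in 769-P than in CAKI-1 by -3.48 (adjusted p = 2.1e-08) and -1.86 (adjusted p = 1.4e-09, limma interaction), where 21.1% of genes tested in both lines were called different. BEX2 in CAKI-1, at -1.65, and KLHDC7B, at -1.44 had lower values than every gene of the list there, a comparison of values with no test. For KLHDC7B this depends on replicate 1 with BCAA. Without that library KLHDC7B was at -0.69, BEX2 at -1.01 and DDIT3 at -0.99, so BEX2 stayed below DDIT3 only by a small margin. Over the fits without single libraries DDIT3 lay between -1.26 and -0.99.

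**Figure D3:**
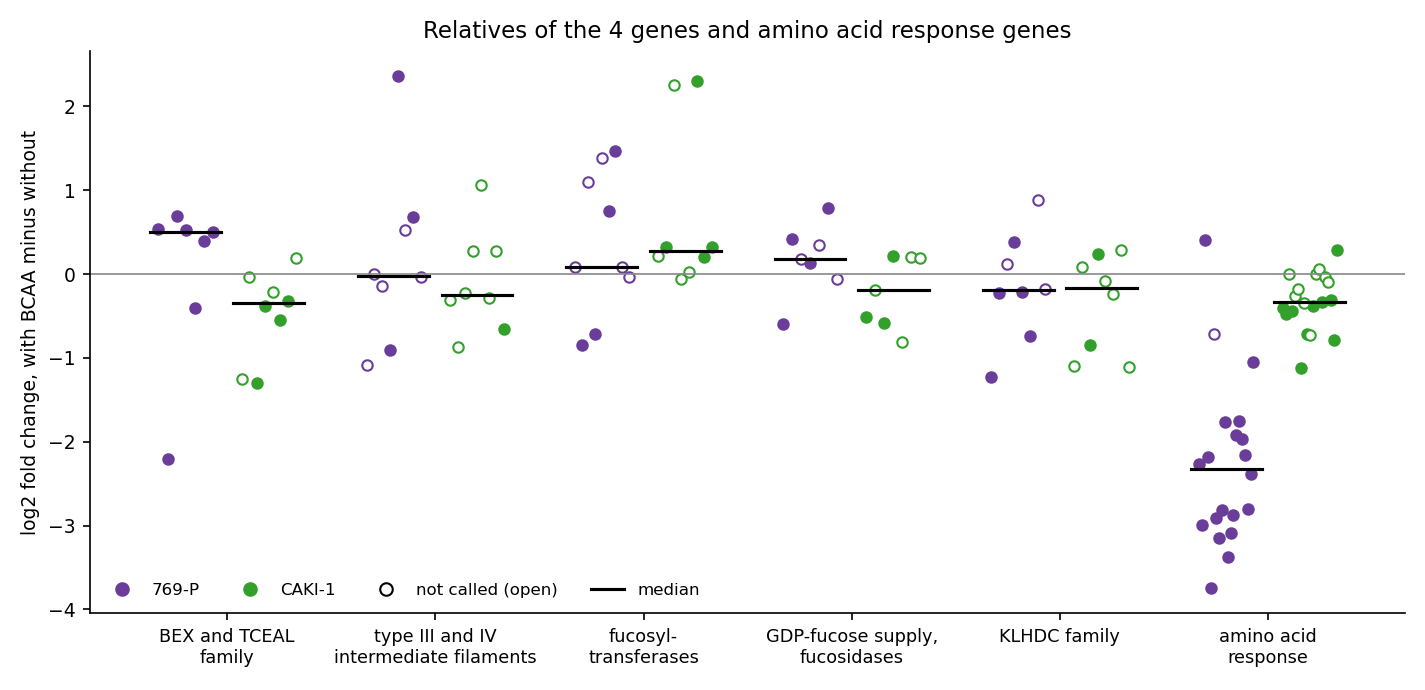
Log2 fold change (with BCAA minus without) of single genes in 6 lists, for 769-P (purple) and CAKI-1 (green), with filled points for genes called at an adjusted p of 0.05, open points for others and black bars for medians. The amino acid response list has its 769-P median at -2.32 and its CAKI-1 median at -0.33, while the families of the 4 genes have medians between -0.35 and 0.50.

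Within 100 kb of the 4 genes lay 50 annotated genes. Of these, 36 were tested in 769-P, where 9 rose and 11 fell, with a median of -0.06. The shares of all genes tested in 769-P were 20.3% higher and 18.2% lower. The choice of the 4 genes fixes that they lie below their neighbours there. In CAKI-1, 3 of 33 rose and 4 fell, near the shares of all genes tested there (10.8% higher and 9.05% lower). Around PRPH, 4 of 9 rose in 769-P and 0 fell, among them TROAP (1.15) and the tubulin gene TUBA1C (0.63). Around BEX2, BEX4 fell and 3 relatives rose, as given above.

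FGF21, the neighbour across the sequence shown for FUT1, had 6 and 4 reads without BCAA and 0 in both libraries with it in 769-P. It was called lower (limma adjusted p = 0.019), but so few reads bound its level with BCAA only to at most 41.6% of that without, and it was not listed in CAKI-1. BCAT2, the mitochondrial aminotransferase that takes the first step of BCAA breakdown, lies 39.7 kb from FUT1 and fell by 0.72 in 769-P (limma adjusted p = 1.0e-05), from 1100 and 1202 reads to 1178 and 967 in the deeper libraries. In CAKI-1 it had 0.17 and did not pass, and the lines differed (-0.90, adjusted p = 1.7e-04, limma interaction). IZUMO1, 1.1 kb from FUT1, had at most 1 read in a library of 769-P.

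KLHDC7B had the most neighbours that fell, 8 of 17 tested in 769-P with 1 higher and a median of -0.71, where 18.2% of all genes tested were called lower. Without single libraries 2 to 3 were called lower. ADM2, a hormone of the calcitonin family, went from 4538 and 4601 reads to 2457 and 2083, a difference of -1.63 (SE 0.05, limma adjusted p = 5.9e-10), and fell by 0.49 in CAKI-1 (limma adjusted p = 0.0081). TYMP, thymidine phosphorylase, fell by 1.46 in 769-P, and MAPK8IP2, a scaffold of JNK signaling, had 25 and 20 reads without BCAA and 8 and 6 with it (-2.12, limma adjusted p = 0.0057). CHKB-CPT1B (-2.51) and CPT1B (-1.23) were also called lower, but they overlap each other and share exons, so their reads are not independent. SYCE3, 89 bases from KLHDC7B, had 6 and 1 reads without BCAA and 0 and 7 with it, which did not pass.

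PRPH is overlapped by AC125611.4, annotated on the other strand, which had 4 and 3 reads without BCAA and 11 and 3 with it in 769-P. The strand setting of the counting is not given in the sources used here, and without strand the reads of these genes cannot be told apart. The antisense gene was not called (0.13, limma adjusted p = 0.92).

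**Figure D4:**
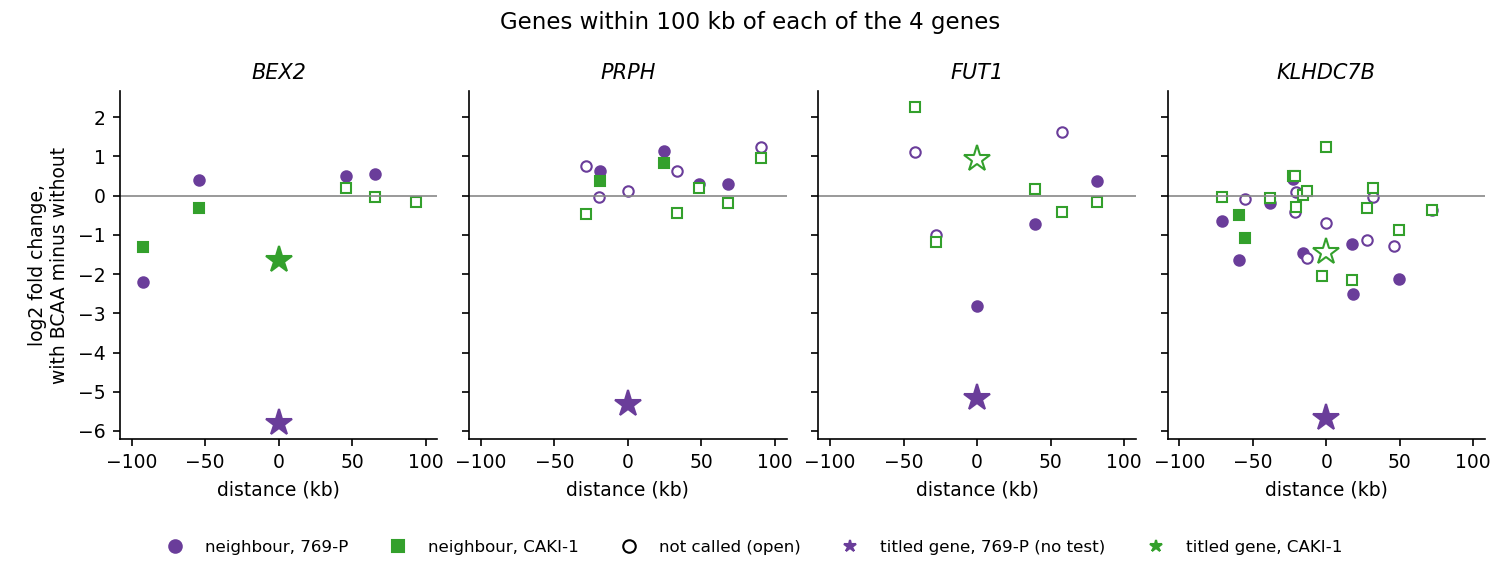
Log2 fold change (with BCAA minus without) of genes within 100 kb of each of the 4 genes against their distance in kb (negative, towards lower coordinates), for 769-P (purple circles) and CAKI-1 (green squares), filled where called. Stars mark the gene in the title, with no test in 769-P. The stars at -5.15 to -5.80 lie below every neighbour in 769-P, as their choice fixes, and of the neighbours CHKB-CPT1B and FGF21 are the lowest.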

How the data were processed

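RNA-seq of 769-P and CAKI-1 with or without BCAA comprised 2 libraries per condition, grouped by their labels. What the authors deposited is a signal for every gene, with 1 table for each cell line, namely the number of reads on the gene over the library's size factor. The submitters' processing notes name Trim Galore, TopHat2 2.1.0, SAMtools 1.3.1, HTSeq 0.6.0, DESeq and DESeq2 with hg38, in no stated order. The annotation and the strand setting are not given in the sources used here. Of the values, 100% were whole multiples of 1 read (tolerance 0.01), so reads were recovered from the tables, which were normalised separately.

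Identifiers were matched to GENCODE 29, which gave a symbol for 25032 of 25431 in 769-P and 23881 of 24190 in CAKI-1. Each line was fitted alone with limma 3.58.1 in R 4.3.3 (lmFit, then eBayes with its trend option) for genes whose values averaged 1 or more. The response was log2(value + 1), and p-values were adjusted by Benjamini-Hochberg and called at 0.05. Such fold changes understate the change of low genes. The difference between lines was the interaction term of 1 limma fit over 8 libraries. Falls in percent came from summed reads with 95% exact binomial intervals, and a group at 0 was set to 3 reads per library, which cover counting error only. Alternatives changed the pseudocount (0.1, 5), the filter (none, 10), the scaling, the replicate block, the libraries and the tool (edgeR 4.0.16, DESeq2 1.42.0 on the reads). The fits were first tested on simulated data. The 4 genes, the 6 lists and the 3 marker lists were chosen with earlier results of these data known, and some neuronal markers are not reported here. Genes named are the 4, those in the lists, those within 100 kb, the 10 largest falls in 769-P and the 3 closest matches to each. Likeness was the Euclidean distance of log2(value + 1) centred within each line.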

Additional observations from a re-analysis of the deposited data

Results flagged for a closer look

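The FUT1 libraries lay in opposite order in the lines. Every library with BCAA was below every library without in 769-P (4 and 2 against 102 and 88 reads) and above in CAKI-1 (8 and 9 against 5 and 2 reads), where the difference was 0.93. The difference between the lines was not tested, and the BCAA effect in CAKI-1 did not pass (limma adjusted p = 0.39).

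Of 82 other genes from the lists and neighbourhoods that were tested for a difference of the BCAA effect between the lines (769-P minus CAKI-1, log2 scale, limma interaction), 38 passed, where 21.1% of all genes tested did. Among relatives of BEX2 the difference was 0.58 for BEX3, 1.07 for TCEAL1, 0.74 for TCEAL3 and 0.72 for TCEAL8. Among filament genes it was 0.61 for VIM. In the fucosyltransferases it was -0.65 for FUT4, 0.72 for FUT8, -1.16 for FUT11 and -0.35 for POFUT2, and among the enzymes of fucose supply 0.57 for GMDS, 0.60 for FPGT and 0.76 for FUCA1. Among KLHDC genes it was 0.96 for KLHDC2 and -0.32 for KLHDC10.

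For the amino acid response, 18 of 19 genes differed. The effect was lower in 769-P by -1.86 for ASNS, -3.48 for CHAC1, -1.60 for TRIB3, -1.79 for DDIT3, -2.51 for ATF3, -1.42 for SESN2, -2.80 for DDIT4 and -1.98 for PSAT1. It was also lower by -2.88 for PHGDH, -2.07 for SLC7A11, -1.34 for VLDLR, -1.74 for CEBPB, -2.71 for NUPR1, -2.49 for STC2, -2.65 for INHBE, -1.05 for GDF15 and -1.93 for SLC3A2. ATF5 differed by 0.42, towards a higher value in 769-P. Among neighbours the difference was 0.48 for SPATS2 and 0.25 for TUBA1C near PRPH, -0.90 for BCAT2 near FUT1, and -0.61 for SBF1, 1.0 for MIOX and -1.14 for ADM2 near KLHDC7B.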

How the results depend on the processing

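Under every alternative the 4 genes kept a fall in 769-P, which their choice for large falls fixes. The size of the fall on the log2 scale followed the treatment of low values. With a pseudocount of 0.1 the differences were -5.97 for BEX2, -5.62 for FUT1 and -8.97 for KLHDC7B, and with 5 they were -5.24, -4.05 and -3.46, with -4.22 for PRPH. On the recovered reads edgeR gave -5.94 for BEX2, -5.51 for FUT1 and -8.67 for KLHDC7B, and DESeq2 gave -5.99, -5.61 and -8.40. Leaving out single libraries moved KLHDC7B between -5.73 and -5.61, FUT1 between -5.44 and -4.87, and PRPH from -6.34 without replicate 1 with BCAA to -4.27 without replicate 2. In CAKI-1, BEX2 was called by all alternatives but quantile normalization (-1.63, limma adjusted p = 0.07) and the left-out libraries, where it lay between -2.29 and -1.01 with adjusted p from 0.071 to 0.33. The value of -1.01 came without replicate 1 with BCAA. DESeq2 gave no adjusted p for FUT1 and KLHDC7B in CAKI-1.

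With 1 library left out, limma takes the lone library to vary like the others. Then 658 to 1456 genes were called lower in 769-P (4069 with all libraries) and 1173 to 1632 higher (4536). In CAKI-1, 0 were called in either direction, with 1848 to 2711 lower and 2236 to 2879 higher at an unadjusted p under 0.05, so a lost call there is no measure of a single gene. Quantile normalization gave 1417 genes higher in CAKI-1 in place of 2312. Without single libraries in 769-P, 16 to 17 of the 20 amino acid response genes (18 with all) and 2 to 3 neighbours of KLHDC7B (8) were called lower, and 0 to 2 BEX and TCEAL genes (5) higher. Of 57 other named genes called in 769-P, 37 missed the threshold without at least 1 library, among them BEX4 (adjusted p up to 0.057), FGF21 (0.081), NES (0.099) and FUT9 (0.075), each with its direction kept. KLHDC1 was not called in 769-P with no filter (limma adjusted p = 0.055) or by DESeq2 (adjusted p = 0.11), nor were BEX4 (0.053) and FUT9 (0.057) in CAKI-1 after quantile normalization, which gave 5 amino acid response genes lower (9 as deposited) and 1 fucosyltransferase higher (4). Replicate numbers did not pair the libraries, the correlation of deviations being -0.015 in 769-P and 0.020 in CAKI-1. With a replicate block, BEX2 in CAKI-1 stayed at -1.65 and KLHDC7B at -1.44 passed (limma adjusted p = 0.048), while FUCA2 in 769-P did not (limma adjusted p = 0.056).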
